A study of Mus musculus with 8 samples.

Results

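The inflammatory CC chemokines examined here were *Ccl2*, *Ccl3*, *Ccl4*, *Ccl5*, *Ccl6*, *Ccl7*, *Ccl8*, *Ccl9*, *Ccl12* and *Ccl22*. The 10 genes were picked by name, and each was represented by exactly 1 of the 22206 transcript clusters of a whole-transcript mouse array, of which 19572 carry a gene symbol in the platform annotation. Gene expression had been measured in 4 spleen RNA samples of Trp53KI/KI;Vav1DC/DC mice with lymphoma and in 4 of Trp53KI/KI control mice. All were on the C57BL/6 background, with 1 array per sample. Both groups carry the knock-in Trp53 allele, which encodes a fusion of p53 with the estrogen receptor that is largely inactive unless 4-hydroxytamoxifen is given. Only the lymphoma group also carries Vav1DC, an edit of the endogenous *Vav1* locus that truncates the C-terminal SH3 domain of this haematopoietic signalling protein in every cell that uses the gene. Genotype and disease therefore cannot be told apart, and the ages of the mice were not given in the labels. Nothing in the labels ties each array to its own animal. The p-values thus refer to the spread among these samples, which may be technical, and 4 arrays a group limit the precision.

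CC chemokines are small secreted proteins that guide leukocytes by binding G protein-coupled receptors on their surface. The inflammatory members are made on demand, by macrophages, stromal cells and activated lymphocytes, after signals such as interferons, tumour necrosis factor and interleukin-1, whereas homeostatic relatives such as *Ccl19* and *Ccl21a* position lymphocytes in the resting spleen. Ligands and receptors are not matched one to one, because several of the ligands share a receptor and several receptors accept more than 1 ligand.

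All values are log2 intensities after normalization across arrays, and background is judged by antigenomic probes, which match no mouse sequence. Median values over all clusters were 7.22 to 7.24 in lymphoma and 7.19 to 7.21 in control spleens. The normalization makes these medians alike, so they do not describe how bright the arrays were. Arrays correlated at 0.992 to 0.995 within a group and at 0.967 to 0.979 between groups. The hybridisation spike controls were slightly dimmer on the lymphoma arrays (mean 10.93 to 11.21, against 11.43 to 11.52 on control arrays), and the poly-A spike controls averaged 8.14 on control replicate 4 but at most 6.04 on the other 7 arrays. The Y-linked gene *Kdm5d* read 7.17 to 8.01 in lymphoma and 8.91 to 9.15 in control spleens. *Uty* (7.37 to 8.52 against 9.26 to 9.41) and *Eif2s3y* (8.91 to 9.84 against 10.64 to 10.85), also Y-linked, were lower in lymphoma spleens too. The part of these differences in the results was not tested. Across all clusters, 4039 (18.2%) were higher and 3825 (17.2%) lower in lymphoma spleens by limma (adjusted p at most 0.05), with a median log2 fold change of -0.06.

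Of the 10 inflammatory CC chemokines, 8 were called higher in lymphoma spleens by limma, against 18.2% of all clusters, and 0 were called lower, against 17.2% of all clusters. *Ccl7* and *Ccl22* were the exceptions, and 0 genes were lower at an unadjusted p under 0.05 too. The median log2 fold change of the 10 genes was 1.15, and for the 8 called genes every lymphoma array lay above every control array, as it did for 18.0% of all clusters. Every lymphoma array lay below every control array for none of the 10 genes and for 16.7% of all clusters. The size of the rise was uneven. On the log2 scale *Ccl8*, *Ccl3* and *Ccl12* rose by at least 3.71, *Ccl5* by 2.92 and *Ccl4* by 1.53, and the remaining 3 called genes by 0.55 to 0.76. In RNA from whole spleen, more cells that make a chemokine and more chemokine RNA per cell cannot be told apart.

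**Figure D1:**
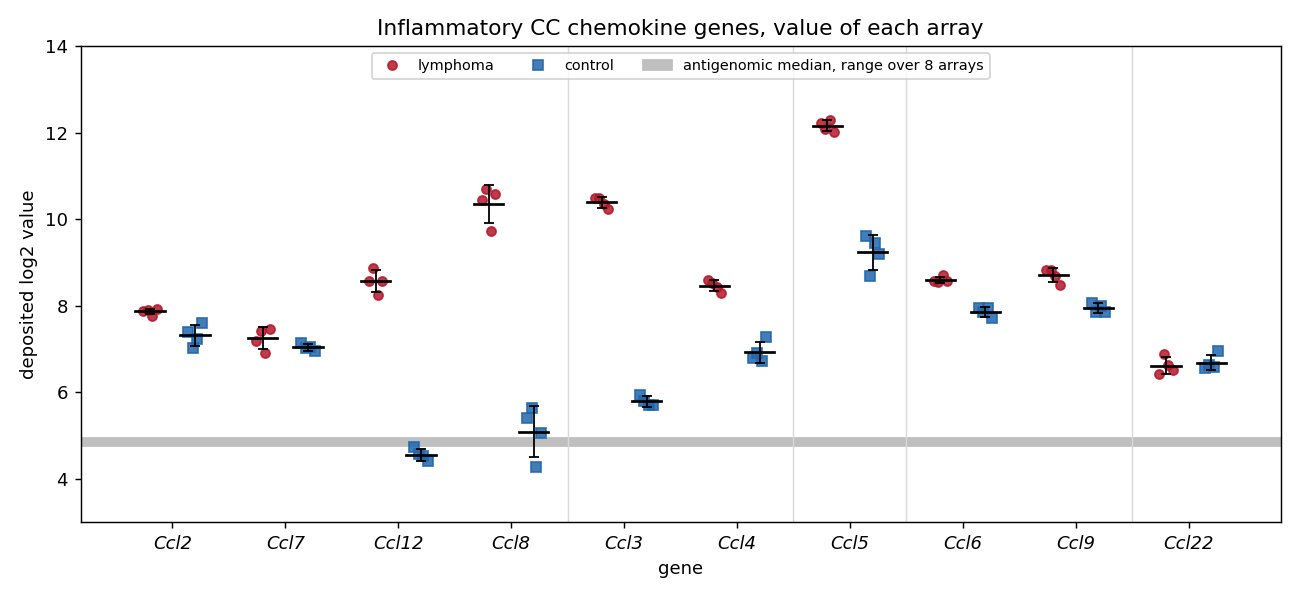
Deposited log2 value (vertical axis) of each inflammatory CC chemokine gene (horizontal axis, grouped by role), with 1 point per array for lymphoma (circles, left) and control (squares, right) spleens, the group mean as a black line and the SD as a bar (n = 4 each), and the median of the antigenomic background probes as a grey band. The lymphoma arrays lie above the control arrays for 8 genes (as for 18.0% of all clusters) and overlap with them for *Ccl7* and *Ccl22*, and control values reach the band only for *Ccl12* and *Ccl8*.

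The monocyte chemoattractant proteins, *Ccl2*, *Ccl7*, *Ccl12* and *Ccl8*, were the most divided group. *Ccl8*, whose product acts mainly through CCR8 in the mouse, had log2 values of 10.45, 10.69, 9.72 and 10.57 in lymphoma spleens, against 5.40, 5.63, 4.28 and 5.07 in control spleens. Every lymphoma array lay far above every control array, with a gap of 4.09 between the groups, although replicate 3 was the lowest array of both groups. The log2 fold change was 5.26 ± 0.26 (SE; 95% interval 4.70 to 5.82, limma adjusted p = 1.47e-08). Since 1 control array did not exceed the antigenomic median, the rise is read as a bound, at least 5.12 on the log2 scale or 34.8-fold.

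*Ccl12*, a CCR2 ligand of the mouse, read 8.57, 8.86, 8.25 and 8.58 in lymphoma spleens and 4.74, 4.57, 4.52 and 4.41 in control spleens. None of the 4 control arrays exceeded the antigenomic median, whereas the lymphoma arrays exceeded 20 to 23 of the 23 antigenomic probe groups. The rise can therefore be read only as a bound, at least 3.71 on the log2 scale or 13.1-fold (limma adjusted p = 1.81e-10).

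*Ccl2*, the main CCR2 ligand that draws monocytes out of the blood, read 7.87, 7.91, 7.77 and 7.92 in lymphoma spleens, against 7.39, 7.03, 7.24 and 7.61 in control spleens. The groups were separate by only 0.16, and the lymphoma arrays were the tighter ones, with a range of 0.15 against 0.58 in controls. The log2 fold change was 0.55 ± 0.11 (SE; interval 0.31 to 0.79, limma adjusted p = 0.00157), a 1.47-fold difference.

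*Ccl7*, which shares CCR2 with *Ccl2* and also binds other receptors, read 7.18, 7.42, 6.92 and 7.47 in lymphoma spleens and 7.14, 7.02, 7.05 and 6.95 in control spleens. Lymphoma replicate 3 lay below all 4 control arrays, and the log2 fold change of 0.21 ± 0.11 (SE; interval -0.04 to 0.45) did not pass the test (limma adjusted p = 0.178). Without lymphoma replicate 3 it was 0.32 (adjusted p = 0.0255), so this 1 array decided the call.

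Upstream sequences are shown for the 3 genes with the largest rises and for *Ccl9*, which rose little, so that their start sites can be set side by side. RefSeq (GRCm38.p6) windows were at hand for 6 of the 10 genes. *Ccl8* (chr11:82114935-82115184, plus strand), *Ccl12* (chr11:82101595-82101844, plus strand), *Ccl3* (chr11:83649379-83649628, minus strand) and *Ccl9* (chr11:83578637-83578886, minus strand) are given for the 250 bases before the annotated start, 5′ to 3′, with matches to the searched motifs in capitals.
Ccl8: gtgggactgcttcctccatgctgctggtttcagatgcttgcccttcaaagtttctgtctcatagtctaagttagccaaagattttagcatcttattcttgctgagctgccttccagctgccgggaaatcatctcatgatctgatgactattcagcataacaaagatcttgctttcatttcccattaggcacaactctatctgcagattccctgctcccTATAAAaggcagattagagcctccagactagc
Ccl12: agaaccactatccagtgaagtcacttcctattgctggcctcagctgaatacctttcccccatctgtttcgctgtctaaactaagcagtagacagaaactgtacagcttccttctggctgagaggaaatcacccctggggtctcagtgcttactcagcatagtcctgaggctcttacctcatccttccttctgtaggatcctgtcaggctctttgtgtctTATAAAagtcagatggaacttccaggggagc
Ccl3: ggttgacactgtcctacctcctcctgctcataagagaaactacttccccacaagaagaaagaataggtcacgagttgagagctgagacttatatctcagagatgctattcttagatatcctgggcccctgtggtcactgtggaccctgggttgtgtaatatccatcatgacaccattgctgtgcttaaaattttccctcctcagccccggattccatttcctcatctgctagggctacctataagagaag
Ccl9: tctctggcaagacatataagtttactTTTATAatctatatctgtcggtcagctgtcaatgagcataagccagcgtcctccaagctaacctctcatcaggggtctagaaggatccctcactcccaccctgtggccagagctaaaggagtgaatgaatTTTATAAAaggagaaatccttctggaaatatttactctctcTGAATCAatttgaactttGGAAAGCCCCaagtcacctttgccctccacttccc
In *Ccl8* and *Ccl12* the capitals mark a TATA box (TATAAA) at positions -32 and -31 from the start. *Ccl9* held TATA box matches at -224, -94 and -92, the last ones overlapping, an AP-1 match (TGANTCA) at -53 and an NF-kappaB consensus match at -35, while *Ccl3* held no match to any of these motifs. Over both strands of the 300-base windows, the TATA box was found in 3 of the 6 genes (13.6% of all 32851 windows), AP-1 in 1 (7.81%), the NF-kappaB consensus in 1 (4.51%), and neither the interferon-stimulated response element core GAAANNGAAA (3.44%) nor the gamma-activated site core TTCNNNGAA (8.3%) in any. A match describes letters only, and no match says nothing about the factor. The longest run of bases that the windows of 2 genes shared was 13 for *Ccl6* and *Ccl9* and 11 for *Ccl8* and *Ccl12*. The other pairs shared 7 to 10, with 10 for *Ccl6* and *Ccl22*, which lie on different chromosomes.

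Among the macrophage inflammatory proteins, *Ccl3*, a ligand of CCR1 made by activated myeloid and lymphoid cells, read 10.48, 10.48, 10.35 and 10.23 in lymphoma spleens and 5.95, 5.81, 5.70 and 5.70 in control spleens. The gap of 4.28 was the widest of the 10 genes, and both groups were narrow, with a range of 0.25 in each. The log2 fold change was 4.59 ± 0.09 (SE; interval 4.40 to 4.78, limma adjusted p = 3.45e-12), ranked 4 of 22206 clusters by the size of the fitted rise. Its control arrays exceeded only 13 of the 23 antigenomic probe groups and averaged 0.93 above the antigenomic median, so the control level was near background.

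*Ccl4*, a related chemoattractant encoded next to it, read 8.59, 8.52, 8.44 and 8.29 in lymphoma spleens, against 6.80, 6.90, 6.73 and 7.28 in control spleens. The groups were separate by 1.01. Its log2 fold change of 1.53 ± 0.12 (SE; interval 1.28 to 1.78, limma adjusted p = 4.58e-07) was a 2.89-fold difference. The annotated spans of *Ccl3* and *Ccl4* overlap, so that signal shared between the 2 clusters is possible.

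*Ccl5*, also called RANTES, is made by activated T and NK cells and binds CCR1 and CCR3. It read 12.22, 12.08, 12.30 and 12.02 in lymphoma spleens and 9.61, 8.69, 9.44 and 9.19 in control spleens. The lymphoma arrays spanned 0.28 and the control arrays 0.92, with a gap of 2.41 between them. The log2 fold change was 2.92 ± 0.16 (SE; interval 2.58 to 3.27, limma adjusted p = 3.15e-08), ranked 28. Its control arrays exceeded 21 to 23 of the 23 antigenomic probe groups.

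*Ccl6* and *Ccl9* are myeloid CCR1 ligands found in rodents. *Ccl6* read 8.58, 8.55, 8.70 and 8.57 in lymphoma spleens and 7.95, 7.85, 7.94 and 7.71 in control spleens, a log2 fold change of 0.74 ± 0.08 (SE; limma adjusted p = 1.26e-05). *Ccl9* read 8.83, 8.83, 8.68 and 8.49 in lymphoma spleens and 8.07, 7.85, 8.0 and 7.85 in control spleens, a log2 fold change of 0.76 ± 0.10 (SE; limma adjusted p = 3.56e-05). The arrays of the groups did not overlap for either gene, with gaps of 0.60 for *Ccl6* and 0.41 for *Ccl9*.

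*Ccl22*, a CCR4 ligand made mainly by dendritic cells and macrophages, read 6.43, 6.89, 6.64 and 6.51 in lymphoma spleens and 6.57, 6.64, 6.59 and 6.95 in control spleens. The groups overlapped, and the log2 fold change of -0.07 ± 0.11 (SE) had an interval of -0.32 to 0.17 (limma adjusted p = 0.663). A rise as large as that of *Ccl2*, at 0.55, lay outside this interval.

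The arrays did not share 1 order. Lymphoma replicate 2 was highest of its group for 5 of the 10 genes, and replicates 3 and 4 were each lowest for 4. Control replicate 1 was highest for 6 genes, and control replicate 4 was lowest for 4 and highest for 3. The averaged level of the 10 genes was 8.78 to 9.02 in lymphoma and 6.75 to 6.96 in control spleens.

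Related chemokines were set against each other on each array, since the difference of 2 log2 values cancels what is common to an array. A difference within an array also depends on how brightly each probe responds, so only its change between groups was read, by a two-sided exact permutation test with 70 labellings (smallest p 0.0286) and Benjamini-Hochberg adjustment over the 5 pairs. *Ccl3* minus *Ccl4* was 1.92 ± 0.03 in lymphoma and -1.14 ± 0.31 in control spleens (SD, n = 4 each), a change of 3.06 ± 0.16 (SE; exact permutation p = 0.0286, adjusted p = 0.0476). *Ccl2* minus *Ccl12* was -0.70 ± 0.19 in lymphoma and 2.76 ± 0.31 in control spleens, a change of -3.46 ± 0.18 (exact permutation p = 0.0286, adjusted p = 0.0476), or -3.16 with *Ccl12* values raised to background. *Ccl8* minus *Ccl12* was 1.79 ± 0.22 in lymphoma and 0.54 ± 0.55 in control spleens, a change of 1.25 ± 0.30 (exact permutation p = 0.0286, adjusted p = 0.0476). On these arrays *Ccl3* thus rose more than *Ccl4*, and *Ccl12* more than *Ccl2*. The pairs were chosen with earlier results of these data known, so their p-values describe the separation and give it no independent support. The rises of *Ccl8* and *Ccl12* are both bounds, so their difference gives no order between these genes. These 3 adjusted values moved to 0.0714, 0.0714 and 0.0952 without lymphoma replicate 4, with changes of 3.05, -3.47 and 1.18. For each of these 3 pairs the groups stayed separate. The adjusted values of *Ccl3* minus *Ccl4* and *Ccl2* minus *Ccl12* moved only because the adjustment is shared with *Ccl8* minus *Ccl12*.

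The other pairs did not pass the test. *Ccl2* minus *Ccl7* was 0.62 ± 0.19 in lymphoma and 0.28 ± 0.28 in control spleens, a change of 0.34 ± 0.17 (exact permutation p = 0.0857, adjusted p = 0.107), which was 0.47 (adjusted p = 0.0357) without control replicate 4. *Ccl6* minus *Ccl9* was -0.11 ± 0.18 in lymphoma and -0.08 ± 0.07 in control spleens, a change of -0.03 ± 0.10 (exact permutation p = 0.829, adjusted p = 0.829). The pair was the only one of the 5 whose change was within its standard error.

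**Figure D2:**
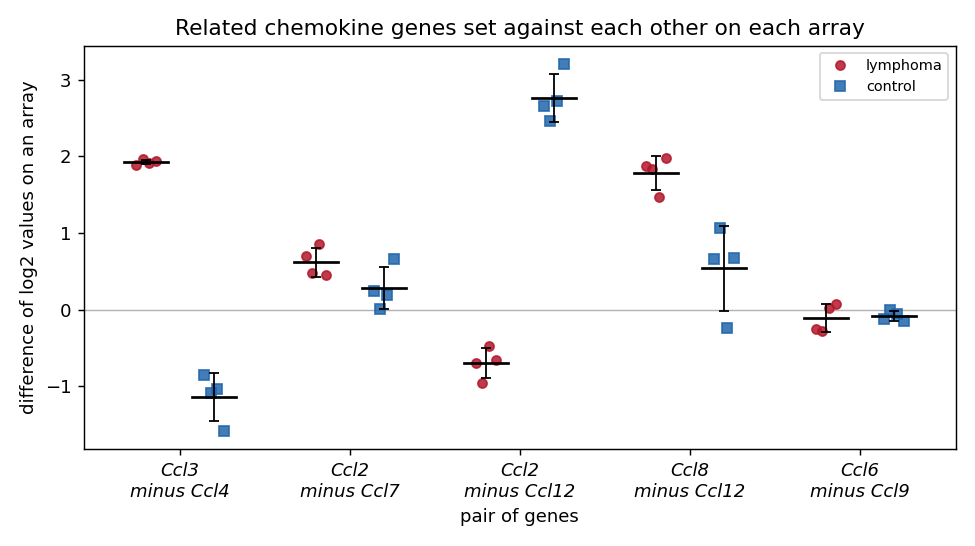
Difference of the log2 values of 2 related chemokine genes on the same array (vertical axis) for each of the 5 pairs (horizontal axis), with 1 point per array for lymphoma (circles, left) and control (squares, right) spleens, the mean as a black line and the SD as a bar (n = 4 each). The groups are separate for *Ccl3* minus *Ccl4*, *Ccl2* minus *Ccl12* and *Ccl8* minus *Ccl12* (which gives no order, since *Ccl12* was at background in control spleens), and overlap for the other 2 pairs.

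In the RefSeq gene order, 9 of the 10 genes lie on chromosome 11 in 2 runs of neighbours, and *Ccl22* lies on chromosome 8. The first run is *Ccl2*, *Ccl7*, *Ccl11*, *Ccl12*, *Ccl8* and *Ccl1*, in which large rises of *Ccl12* and *Ccl8* (at least 3.71 and 5.12) stood between the small one of *Ccl11*, an eosinophil chemoattractant (0.44, limma adjusted p = 0.0134), and *Ccl1*, a CCR8 ligand that did not pass the test (-0.06, adjusted p = 0.792). The second run is *Ccl5*, *Ccl9*, *Ccl6*, *Ccl3* and *Ccl4*, in which *Ccl9* and *Ccl6* (0.76 and 0.74) stood between *Ccl5* and *Ccl3* (2.92 and 4.59). Of neighbouring genes, the difference in change was tested for *Ccl3* with *Ccl4*, *Ccl8* with *Ccl12*, *Ccl6* with *Ccl9* and *Ccl2* with *Ccl7* alone.

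**Figure D3:**
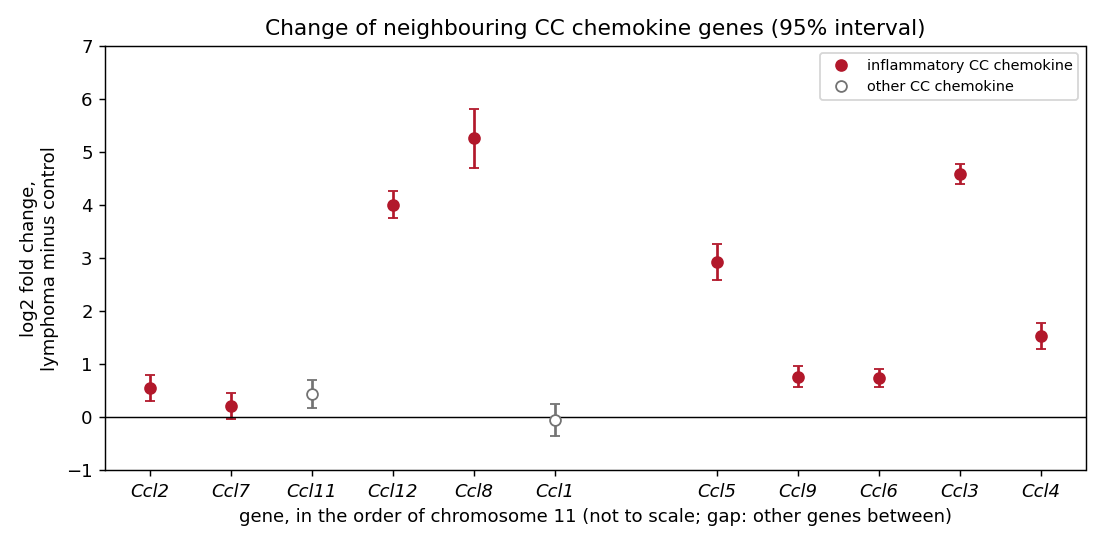
Log2 fold change, lymphoma minus control (vertical axis, bars are 95% intervals, n = 4 arrays each), of the CC chemokine genes of chromosome 11 in their order along the chromosome (horizontal axis, not to scale, with a gap for other genes between the runs). Filled points are the inflammatory CC chemokines examined here and open points their neighbours *Ccl11* and *Ccl1*; *Ccl8* and *Ccl1* (-0.06) are adjacent, and the points of *Ccl12* and *Ccl8* are fitted values of which at least 3.71 and 5.12 can be read.

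The receptor genes had smaller log2 fold changes, up to 1.41, than the leading ligands. Of 9 measured receptor genes (1 more is not analysed here), 5 were higher, 1 was lower and 3 were not called, against 18.2% higher and 17.2% lower of all clusters. Their median log2 fold change was 0.51. *Ccr2*, the receptor of *Ccl2*, *Ccl7* and *Ccl12*, averaged 9.33 ± 0.15 in lymphoma and 8.37 ± 0.15 in control spleens (SD, n = 4 each), a log2 fold change of 0.96 (limma adjusted p = 6.75e-06). *Ccr4*, which binds *Ccl22*, rose by 1.41 (adjusted p = 6.26e-06) and *Ccr8*, which binds *Ccl8*, by 0.91 (adjusted p = 2.45e-05). *Ccr1*, the receptor of *Ccl3*, *Ccl6* and *Ccl9*, rose by 0.51 (adjusted p = 0.00722), and *Ccrl2*, an atypical receptor, by 0.88 (adjusted p = 1.13e-04). *Ackr2*, a scavenger that removes inflammatory CC chemokines, was the gene of this list that fell, at 7.38 ± 0.09 in lymphoma against 7.85 ± 0.14 in control spleens, a log2 fold change of -0.47 (adjusted p = 0.00108). *Ccr7*, the receptor of *Ccl19* and *Ccl21a*, is counted with the dendritic cell markers below and fell by 0.61 (adjusted p = 1.21e-04). *Ccr3*, *Ackr1* and *Ackr4* had log2 fold changes of 0.04, 0.21 and -0.14.

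Among 11 other CC chemokine genes, 2 rose and 2 fell, shares near the 18.2% and 17.2% of all clusters, with a median log2 fold change of -0.17. *Ccl19*, which guides T and dendritic cells into the white pulp, rose by 1.03 (limma adjusted p = 1.75e-05), and *Ccl11* by 0.44. *Ccl21a*, which shares CCR7 with *Ccl19*, fell by 1.29 (adjusted p = 4.47e-06), though near-identical gene copies make its probe signal uncertain. *Ccl24*, an eosinophil chemoattractant, fell by 0.27 (adjusted p = 0.0218). The 7 others ranged from -0.30 for *Ccl25* to -0.06 for *Ccl1*, and included *Ccl17*, which shares CCR4 with *Ccl22* (-0.13, adjusted p = 0.370), *Ccl20* (-0.17), *Ccl26* (-0.18), *Ccl27a* (-0.14) and *Ccl28* (-0.19). All 4 lymphoma arrays of *Ccl26* were at background. Leaving out lymphoma replicate 4 made 5 of these genes lower, and 1 was lower when control replicate 2, control replicate 4, lymphoma replicate 1 or lymphoma replicate 2 was left out.

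Of 24 measured genes for inducers and feedback regulators of these chemokines (2 more are not analysed here), 14 were higher, 3 were lower and 7 were not called. The shares of all clusters were 18.2% higher and 17.2% lower. The median log2 fold change of the 24 genes was 0.39. *Ifng*, interferon-gamma, averaged 9.16 ± 0.21 in lymphoma and 5.66 ± 0.36 in control spleens (SD, n = 4 each), a log2 fold change of 3.50 (limma adjusted p = 7.59e-09). *Il1b*, an inflammatory cytokine, rose by 1.64 (adjusted p = 1.25e-07) and *Il10*, an anti-inflammatory one, by 1.59 (adjusted p = 3.25e-08). The NF-kappaB subunit genes did not move together. *Rel* fell by 0.77, *Rela* rose by 0.40 (adjusted p = 0.00134), and *Nfkb2* and *Relb* were not called (0.11 and 0.05).

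**Figure D4:**
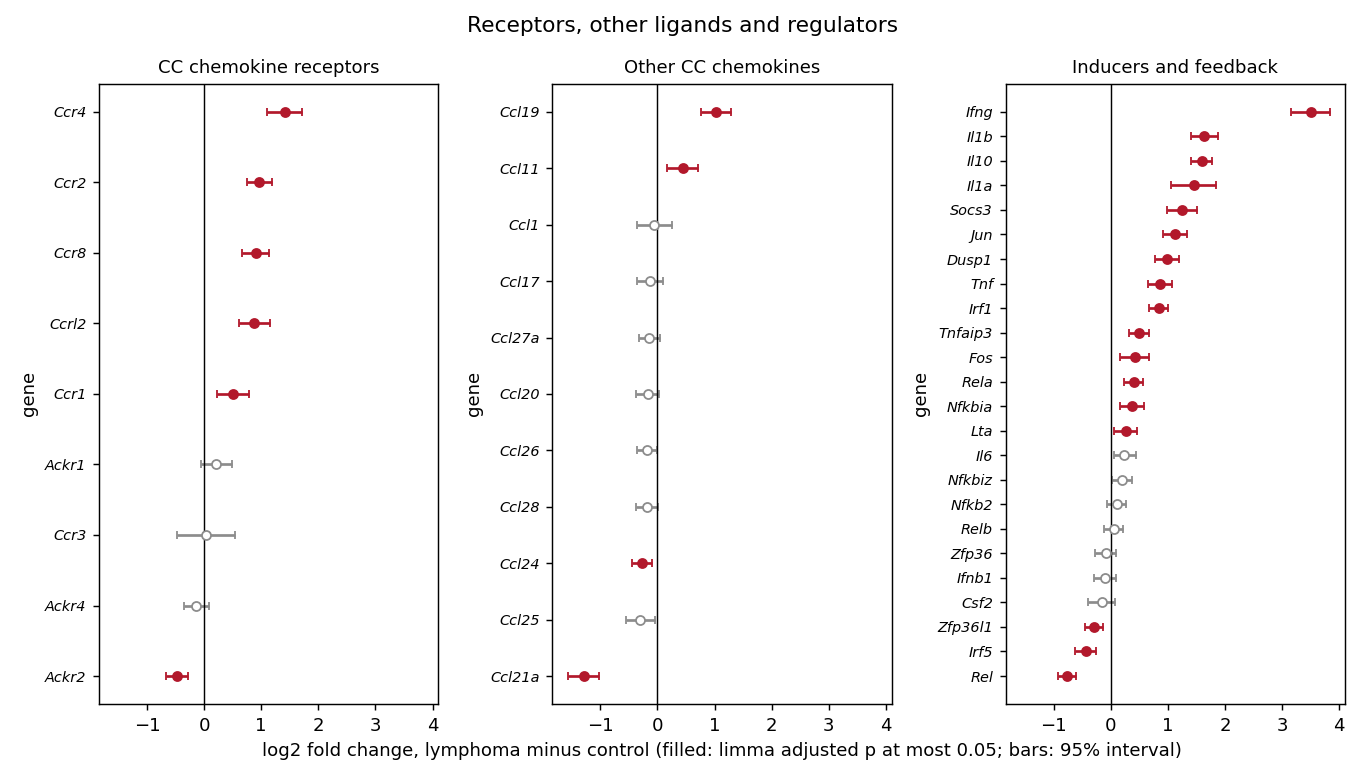
Log2 fold change, lymphoma minus control (horizontal axis, bars are 95% intervals, n = 4 arrays each), of the measured CC chemokine receptor genes (a list without *Ccr7*), the other CC chemokine genes and the inducer and feedback genes (panels, 1 gene per row), with filled points where the limma adjusted p is at most 0.05. *Ifng* at 3.50 lies far to the right of the other inducers, and *Ackr2* at -0.47 is the filled receptor gene to the left of 0.

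Markers of the cell types that make or receive these chemokines were read in the same samples. Each count below stands against 18.2% higher and 17.2% lower of all clusters. For monocytes and macrophages, 6 of 8 measured markers (10 listed) rose and none fell, and their mean log2 level was 9.59 to 9.64 in lymphoma and 8.84 to 8.94 in control spleens. The lead markers were *Itgam* (1.32), *Fcgr1* (1.31) and *Ly6c2* (1.19), *Csf1r* rose by 0.66 (limma adjusted p = 2.67e-05), and *Adgre1* had a log2 fold change of -0.17 (adjusted p = 0.319). Neutrophil markers had the larger shift, with 8 of 9 measured (10 listed) higher, a median of 2.65 and levels of 9.50 to 9.70 in lymphoma and 7.08 to 7.31 in control spleens, led by *Ngp* (4.21), *S100a8* (3.65) and *S100a9* (3.35). Their part in the rises of *Ccl3*, *Ccl8*, *Ccl12*, *Ccl6* and *Ccl9* was not tested.

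Markers of resident spleen macrophages, of the red pulp and the marginal zone, split, with 4 of 8 higher and 4 lower. Their levels were 9.20 to 9.60 in lymphoma and 9.12 to 9.40 in control spleens. *Cd5l* rose by 1.95 and *Vcam1* by 1.09, and *Cd163* fell by 1.09. The falls included *Marco* (-1.04) and *Siglec1* (-0.62), which mark the marginal zone rather than the red pulp. T cell markers rose in 5 of 7 measured (8 listed), at 9.67 to 9.83 in lymphoma and 9.07 to 9.20 in control spleens, with *Cd6* at 1.19, *Cd4* at 0.85 and *Cd3e* at 0.83. Cytotoxic and NK markers had 4 of 8 higher and 2 lower, at 8.15 to 8.56 in lymphoma and 7.76 to 7.95 in control spleens, with *Gzmb* at 2.95, *Nkg7* at 2.10, *Klrb1c* at -1.36 and *Ncr1* at -1.28. The part of these lists in the rise of *Ccl5* was not tested.

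All 7 measured B cell markers (8 listed) fell, at 10.17 to 10.46 in lymphoma and 11.48 to 11.54 in control spleens, led by *Cr2* (-1.92), *Fcer2a* (-1.79) and *Ebf1* (-1.40). Dendritic cell markers had 2 of 9 higher (22.2%, near the 18.2% of all clusters) and 4 lower, at 7.80 to 7.96 in lymphoma and 8.04 to 8.09 in control spleens. Among them were *Itgax* at 1.68, *Cd209a* at -1.74, *Siglech* at -1.10 and *Flt3* at -0.27 (limma adjusted p = 0.208). Mast cell, basophil and eosinophil markers had 3 of 8 higher and none lower, at 5.83 to 5.99 in lymphoma and 5.51 to 5.58 in control spleens. The 3 were *Cpa3* (at least 0.84, since 1 control array did not exceed the antigenomic median), *Mcpt8* (0.85) and *Prg2* (0.78). Endothelial and stromal markers had 1 of 6 higher, *Dcn* (1.25), and 1 lower, *Pecam1* (-0.88), shares near the 18.2% and 17.2% of all clusters. Their levels were 8.90 to 9.0 in lymphoma and 8.83 to 8.92 in control spleens. No marker in any list was at background on all 8 arrays, though *Ms4a2*, of the mast cell list, was on 3 lymphoma and all 4 control arrays. The part of these lists in the chemokine results was not tested.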

How the data were processed

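The deposited log2 values were used as given. The authors had hybridised spleen RNA to Clariom S HT arrays and summarised the probes by robust multichip average (RMA), and the submitters' processing notes name R 3.6.3. RMA normalizes the arrays to one another, so differences are relative to the bulk of clusters. Of 29129 rows, 6923 control rows were set aside, and 22206 transcript clusters were fitted with limma 3.58.1 in R 4.3.3 (lmFit and eBayes, lymphoma minus control, no covariate, Benjamini-Hochberg over all clusters, adjusted p at most 0.05). A cluster was taken as above background where it exceeded the median of the 23 antigenomic rows of its array. These rows are ordered by their GC content, and the GC content of the clusters themselves was not used here. Where a group was at or below that median, values were raised to it and the fold given as a lower bound.

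The members, gene lists and tests were chosen with earlier results of these data known. The lists came from textbook knowledge, and 124 of their 132 genes were measured. The text names all 10 chemokines, all genes of the receptor and other CC chemokine lists, and in every other list the 3 called genes with the largest absolute log2 fold change plus fixed defining genes. Genes outside that rule, namely *Rel*, *Rela*, *Nfkb2*, *Relb*, *Ccr7*, *Marco*, *Siglec1*, *Ms4a2*, *Kdm5d*, *Uty* and *Eif2s3y*, were chosen after their values were seen. Promoter sequences are from RefSeq. The TATA box search was added after the sequences were seen, and motifs were searched on both strands. The limma fit was tested on simulated data with known changes. The labels name Trizol for the RNA extraction and the methods a column kit, and the design text speaks of splenocytes where the sample labels say spleen. No scan date or other batch label was used. Alternatives were the replicate number as a block, other scalings, filters, tests and thresholds, and leaving out each array.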

Additional observations from a re-analysis of the deposited data

Results flagged for a closer look

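1 of 60 groups of 4 arrays held an array far from the others. *Ccrl2*, an atypical chemokine receptor gene, read 7.19 on control replicate 3, while the other control arrays read 6.80 to 6.83. The gap to the nearest array was 0.921 of the range of the group, above Dixon's 95% critical value for 4 samples, which chance passes in about 5% of groups. Without this array the log2 fold change of *Ccrl2*, lymphoma minus control, was 0.98 (limma adjusted p = 7.46e-05).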

How the results depend on the processing

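Of 555 values recomputed under alternatives, 528 kept their direction and side of the threshold (or stayed within the spread or within 1.5 times the count). The number of chemokines that rose was 8 under cyclic loess, equal array medians, trend and robust moderation, array weights, an unmoderated test and a threshold of 0.01. It was 7 without the dimmest 50% of clusters, which removes *Ccl7*, *Ccl12* and *Ccl22* from the test, and 8 to 9 with 1 array left out.

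Without the dimmest 50% of clusters, fewer list genes were tested, and the genes that rose numbered 3 receptors, 1 other CC chemokine and 0 mast cell, basophil and eosinophil markers, and 0 cytotoxic and NK markers fell. With equal array medians, 1 mast cell, basophil and eosinophil marker fell. Leaving out 1 array gave 1 to 5 other CC chemokines that fell, 0 to 1 mast cell, basophil and eosinophil markers that fell, and log2 fold changes of 0.13 to 0.32 for *Ccl7* and -0.16 to 0.02 for *Ccl22*. For the pairs it gave 2.91 to 3.16 for *Ccl3* minus *Ccl4*, -3.56 to -3.31 for *Ccl2* minus *Ccl12*, 0.99 to 1.42 for *Ccl8* minus *Ccl12*, 0.26 to 0.47 for *Ccl2* minus *Ccl7* and -0.09 to 0.03 for *Ccl6* minus *Ccl9*. Against stricter background levels, fewer of the 40 gene and array values stood above background. They numbered 40 in lymphoma and 35 in control spleens over the antigenomic median, 17 in lymphoma and 3 in control spleens over the 95th percentile, and 16 in lymphoma and 3 in control spleens over the highest antigenomic row.

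The arrays share replicate numbers across groups. Same-numbered arrays deviated together by 0.04 to 0.17 (correlation), and each of the 4 lymphoma arrays correlated best with its own number. The labels name no pairing and the main fit used none, though these values do not exclude it. With the replicate block, 8 chemokines were higher, as without it, and 3 other CC chemokines were lower, against 2 without it. In the paired sign-flip permutation test, the changes of 3.06, -3.46 and 1.25 each had p = 0.125, the smallest that 4 pairs can give, so that this test could not pass the threshold. The mean over several clusters of a gene gave no value, since each chemokine had 1 cluster. The antigenomic rows limit the dim genes, chiefly *Ccl12* and *Ccl8* in control spleens.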
